A study of Mus musculus with 4 samples.

Results

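Ribosome footprints on 38 genes of macroautophagy, from the initiation kinases to the cargo receptors, were examined in primary mouse myoblasts, the cultured and dividing progeny of muscle stem cells. The 38 genes were taken by name, by a rule that uses no measured value, and all 38 were found among the 55573 genes of the deposited table. Cells came from WT mice and from mice labelled KO for eIF5A, 2 Ribo-seq libraries per group, taken on Day 2 of culture with FGF and with cycloheximide added to hold ribosomes in place. Per the methods of the study, KO mice were Pax7 CreERT2/+;eIF5A f/f, so that tamoxifen removes the gene in cells that express Pax7, and the floxed allele was on a C57BL/6j background. WT controls were described as Pax7 CreERT2/+ and, for another experiment, as Pax7+/+;eIF5A f/f, and those for the myoblasts as littermates of the KO mice, with no genotype given there. The mice used for myoblasts were 3 weeks old. Nothing in the sources used here says whether the 2 libraries of a group came from separate mice, so p-values measure the spread between these libraries, which may be technical. The libraries are called WT1, WT2, KO1 and KO2, and the last pair is described as labelled KO for a reason given with Eif5a.

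Macroautophagy encloses cytoplasm in a double membrane and delivers it to the lysosome. The ULK1 kinase complex starts the process, the class III phosphatidylinositol 3-kinase complex marks the site with its lipid, ATG9 and ATG2 supply membrane, and a pair of ubiquitin-like conjugation systems attach the LC3 and GABARAP proteins to that membrane. Cargo receptors bind both the cargo and the attached LC3 family protein. In muscle the pathway is known for keeping stem cells in good order and for removing damaged mitochondria. eIF5A, a translation factor that carries the modified residue hypusine, helps ribosomes past stretches that are hard to join, such as runs of prolines, and is known in other cells to aid the translation of ATG3, which acts at the lipidation step.

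None of the 36 genes that could be tested differed between the groups at an adjusted p-value under 0.05 in limma, where 0.106% of all 11363 genes tested did. The median log2 difference was 0.02 over these 36 genes and 0.00 over all genes tested, with 19 of the 36 above 0 and 17 below. Only Bnip3, a mitophagy receptor, had an unadjusted p-value under 0.05, where 7.32% of all genes tested had. It was also the only gene of the 36 that combined such a p-value with a change of 2-fold or more. In the higher direction 2.67% of all genes tested met this pair of criteria. In the lower direction no gene of the 36 did, where 4.29% of all genes tested did. With limma-voom on recovered reads, 0 of the 36 passed the adjusted threshold, as 0.695% of all genes tested did, and 2, Ulk1 and Atg4c, had an unadjusted p-value under 0.05, as 11.1% of all genes tested had. Atg4c is the 1 gene of the 36 whose mean in WT was below the filter of 1 RPKM, so that it was tested only because of its level in the libraries labelled KO, and its difference and calls are partly set by that filter.

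The 2 genes left out of the test, Atg4a and Atg4d, had a mean below 1 RPKM (reads per kilobase of a gene's exons, after scaling between libraries). Whole reads were recovered from the deposited RPKM, and the 38 genes held 1282 and 951 reads in WT1 and WT2 and 1913 and 1923 in KO1 and KO2, with a median of 100 reads per gene over the 4 libraries. At this depth a floor of 3 reads on a gene of 1 kb corresponds to 3.31 to 6.37 RPKM. The 95% interval of the log2 difference was within 1 of 0 on both sides for none of the 36 genes, and within 2 of 0 on both sides for 31. Standard errors ran from 0.37 to 0.84 on the log2 scale. For each of the 36 genes the interval thus still held a 2-fold change in at least 1 direction.

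The libraries themselves stood apart in several ways. Gene-assigned reads numbered 642429 to 704006, of which protein-coding genes took 41.5% and 33.9% in WT1 and WT2 and 65.4% and 59.2% in KO1 and KO2. Mitochondrial rRNA took 39.1% and 30.1% of these reads in WT1 and WT2 and 15.0% and 18.5% in KO1 and KO2. The gene aimed at, Eif5a (chromosome 11, minus strand, 69916714 to 69921958 of GRCm38, ENSMUSG00000078812), had 50 and 73 reads in WT1 and WT2 and 130 and 114 in KO1 and KO2. Its level was 34.9 and 65.2 RPKM against 60.3 and 59.4, a log2 difference of 0.32 (SE 0.48, limma adjusted p-value of 0.84). This difference was -0.12 without WT1, 0.76 without WT2, 0.31 without KO1 and 0.33 without KO2. A loss of footprints on Eif5a under the KO label was thus not seen, and the 95% interval of -0.87 to 1.51 held smaller losses but none of 2-fold or more. Myoblast markers were present, and 4 of 6 were lower in both libraries labelled KO than in both WT libraries, with a summed level of 231 and 179 RPKM in WT1 and WT2 and 95.4 and 114 in KO1 and KO2. Markers of differentiating muscle summed to 171 RPKM in WT1 and to 15.7, 7.82 and 8.16 in WT2, KO1 and KO2, with Mymk and Mymx at 0 in both WT libraries. Fibroblast markers summed to 444 and 250 RPKM in WT1 and WT2 and 750 and 327 in KO1 and KO2, endothelial markers to 102 and 95.1 against 131 and 106, and immune markers to 28.1 and 38.5 against 23.9 and 24.6. Of the tested markers of differentiating muscle, 3 of 4 were lower with the groups apart, of fibroblasts 2 of 6 were higher, of endothelium 3 of 4 were higher, and of immune cells 1 of 3 was higher and 2 were lower, so that the immune sum hides genes that went both ways. Over all genes tested 20.1% were higher and 20.3% lower with the groups apart. Of the lower myoblast markers 1, and of the lower markers of differentiating muscle 1, had a mean under the filter of 1 RPKM under the KO label and were tested only through their level in WT. The part of these differences in the results below was not tested. Fewer cells of a type and less RNA per cell cannot be told apart in such bulk samples, and footprints alone do not separate mRNA level from translation.

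Read by read, the receptors held the largest share, and 2038 of their 2990 reads lay on Sqstm1. Cargo receptors took 49.3% of all reads on the 38 genes, and Sqstm1 alone took 24.6% (95% Wilson interval 22.3% to 27.0%) in WT1, 38.4% (35.3% to 41.5%) in WT2, 31.3% (29.2% to 33.4%) in KO1 and 39.5% (37.4% to 41.7%) in KO2. The initiation genes took 12.2% (10.6% to 14.2%) of the reads in WT1 but 7.47% (5.96% to 9.31%) in WT2, 7.68% (6.57% to 8.96%) in KO1 and 7.38% (6.30% to 8.64%) in KO2. WT1 thus stood apart from WT2 as much as from the libraries labelled KO. The receptor share showed the same with the sign turned, at 41.8% (39.1% to 44.5%) in WT1 and 50.8%, 50.6% and 52.2% in WT2, KO1 and KO2. Sqstm1 held 315 of 536 receptor reads in WT1, 365 of 483 in WT2, 598 of 968 in KO1 and 760 of 1003 in KO2. As a share of protein-coding reads the receptors made up 0.199%, 0.222%, 0.210% and 0.260% in the same order. On that scale KO2 and not WT1 stood apart. The initiation genes made up 0.058%, 0.033%, 0.032% and 0.037%, with WT1 still apart. LC3 family genes took 11.2%, 12.2% and 11.9% in WT1, WT2 and KO1 and 15.1% (13.6% to 16.8%) in KO2. Conjugation genes were the most even, between 8.11% and 9.20% in all 4 libraries. These intervals cover counting error only, since the reads carry no molecular identifiers.

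**Figure D1:**
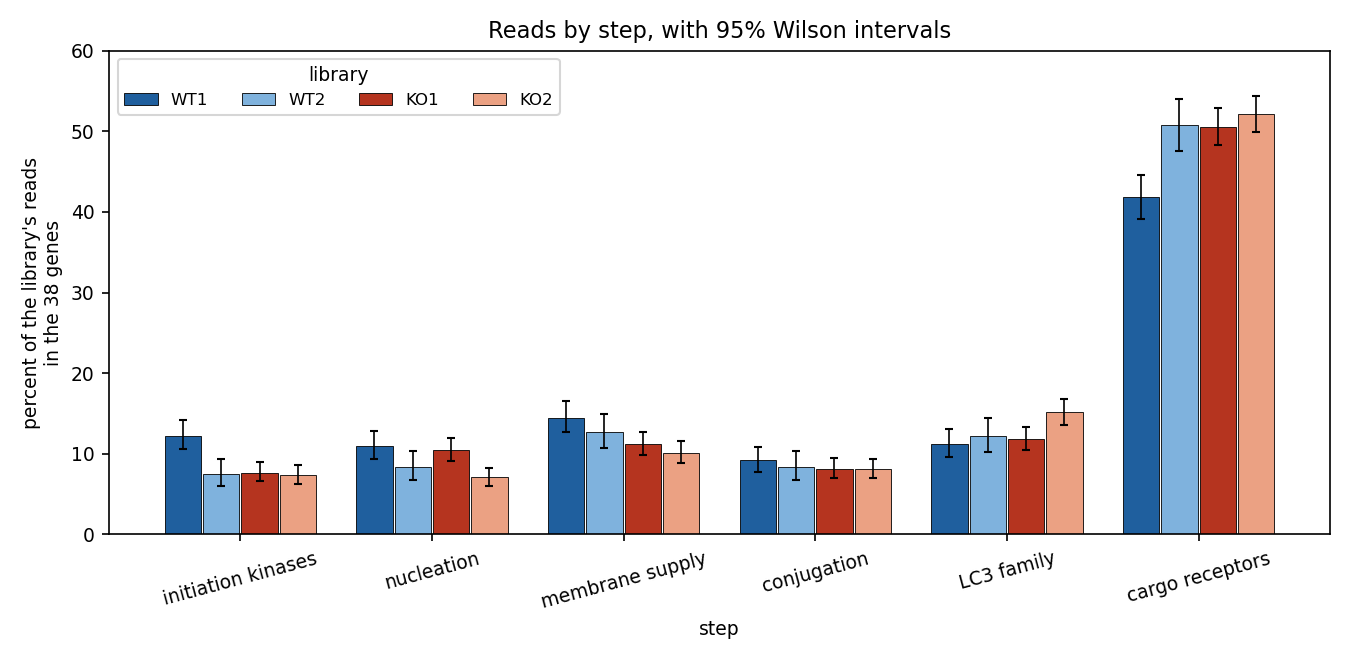
Share of each library's reads on the 38 genes (y axis, percent) by step of the pathway (x axis), with a bar for each of the 4 libraries and 95% Wilson intervals for counting error. Cargo receptors take 41.8% to 52.2%, and WT1 stands apart in the initiation step at 12.2% against 7.38% to 7.68% in the other 3 libraries.

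Summed over the 38 genes, the level was 508 ± 42.1 RPKM in WT (SD, n = 2) and 599 ± 80.2 under the KO label (SD, n = 2), and KO1 at 542 lay next to WT2 at 538. As a share of protein-coding reads the 38 genes made up 0.476% and 0.437% in WT1 and WT2 and 0.416% and 0.499% in KO1 and KO2, which overlap. Step by step, the median log2 difference was -0.17 for the 5 initiation genes, -0.22 for the 6 nucleation genes, -0.18 for the 5 membrane supply genes, 0.04 for the 8 tested conjugation genes, 0.17 for the 5 LC3 family genes and 0.03 for the 7 receptors. The medians of single libraries varied within groups by 0.18 to 0.36 (SD) on the same scale, which was more than the size of the difference in each of the 6 steps, and none of these medians was tested. Without WT1 the medians of initiation and nucleation became 0.20 and 0.21, so their sign was set by that library.

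**Figure D2:**
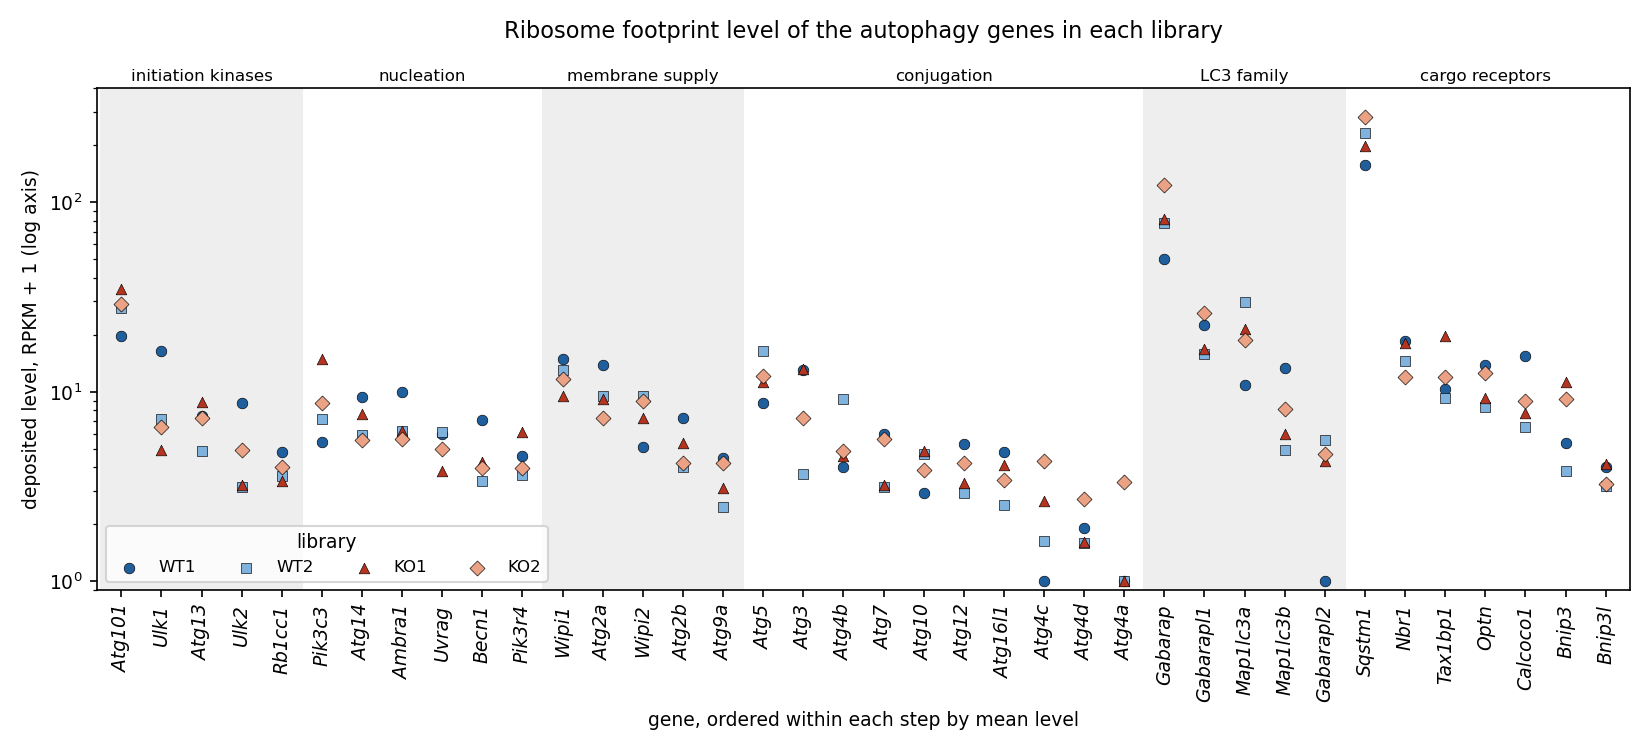
Deposited level of each of the 38 genes (y axis, RPKM + 1 on a log axis) in WT1, WT2, KO1 and KO2, with genes on the x axis grouped by step and ordered by mean level. Sqstm1 (156 to 280 RPKM) and Gabarap (49.5 to 123 RPKM) lie above all others in each library, and for most genes the points of the 2 groups are mixed.

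Levels were also set on coding length, as RPKM multiplied by gene length and divided by the length of the longest annotated coding sequence. This was done because the deposited gene length counts all exons and some of these genes have long untranslated ends. The scale takes all reads of a gene to lie in its coding sequence, which was not checked. On this scale Sqstm1 and Gabarap, with means of 546 and 434 over the 4 libraries, lay at the 99.3 and 98.9 percentiles of the 9869 protein-coding genes tested with a coding sequence. Gabarapl1 (111), Map1lc3b (103), Atg101 (65.3) and Map1lc3a (62.6) followed, between the 87.2 and 93.5 percentiles. At the other end Atg4a, Atg4c, Atg4d and Atg9a had means of 1.30, 3.42, 4.86 and 5.87. The shared complexes were uneven: in the ULK1 complex Atg101 stood at 65.3 while Rb1cc1, Atg13, Ulk1 and Ulk2 stood at 9.15, 17.2, 15.9 and 7.71, with no overlap between the libraries of Atg101 and those of the other 4. In the ATG12-ATG5-ATG16L1 complex the means were 53.4, 31.7 and 14.0, and the libraries of Atg12 and Atg5 overlapped. On deposited RPKM the means of these genes were 2.93, 11.1 and 2.72, so that Atg5 was then the highest. Among the subunits of the phosphatidylinositol 3-kinase complex that drives nucleation, Becn1, Atg14, Pik3c3 and Pik3r4 had means of 19.4, 18.0, 13.5 and 8.49. The range of each over the libraries overlapped that of its neighbours in this order. On deposited RPKM their means were 3.69, 6.14, 8.06 and 3.58, with Pik3c3 the highest.

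In the initiation step, Ulk1 and Ulk2 encode the kinases, Rb1cc1 the scaffold FIP200, and Atg13 and Atg101 the adaptors that hold the complex together. Ulk1 (chromosome 5, 110784488 to 110810097, minus strand, GRCm38) had 60, 19, 23 and 29 reads in WT1, WT2, KO1 and KO2, and 15.3, 6.22, 3.91 and 5.53 RPKM. Both libraries labelled KO lay below both WT libraries, but WT2 was nearer to KO2 than to WT1. The log2 difference was -0.94 (SE 0.51, 95% interval -2.19 to 0.31, limma adjusted p-value of 0.69), -0.35 without WT1 and -1.53 without WT2, where the unadjusted p-value was 0.046 in limma. Atg101 (chromosome 15, 101284272 to 101290945, plus strand) had 18.7, 26.6, 33.8 and 27.9 RPKM from 18, 20, 49 and 36 reads. Its groups did not overlap either, though WT2 and KO2 differed by less than the 2 WT libraries did, and the log2 difference was 0.45 (SE 0.42, limma adjusted p-value of 0.73), or 0.20 without WT1 and 0.69 without WT2. Ulk2, Rb1cc1 and Atg13 had 65, 120 and 78 reads in all and overlapped between groups, with WT means of 4.95, 3.22 and 5.17 RPKM and means of 3.07, 2.72 and 7.03 in the libraries labelled KO.

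In the nucleation step, Pik3c3 encodes the lipid kinase VPS34, Pik3r4 its regulatory subunit, Becn1 the scaffold Beclin 1, Atg14 the subunit that directs the complex to autophagy, Uvrag the alternative subunit of the endosomal form, and Ambra1 a Beclin 1 partner. Pik3c3 had 4.46, 6.18, 13.8 and 7.76 RPKM in WT1, WT2, KO1 and KO2, from 12, 13, 56 and 28 reads. Both libraries labelled KO were above both WT libraries, with KO1 the highest. Its group means were 5.32 ± 1.22 and 10.8 ± 4.29 RPKM (SD, n = 2), and the log2 difference was 0.86 (SE 0.43, 95% interval -0.20 to 1.93, limma adjusted p-value of 0.68). Without KO1 it was 0.49. Its partner subunits did not share the pattern, since Pik3r4, Becn1 and Atg14 overlapped between groups and had WT means of 3.12, 4.25 and 6.68 RPKM against 4.04, 3.13 and 5.61. Uvrag had 4.96 and 5.17 RPKM in WT1 and WT2 and 2.81 and 3.97 in KO1 and KO2, and did not overlap. Ambra1 had WT values of 8.94 and 5.20 RPKM and overlapped with KO1 at 5.22.

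In the membrane supply step, ATG9A is the scramblase of the vesicles that seed the membrane, ATG2A and ATG2B are the lipid transfer proteins, and WIPI1 and WIPI2 read the lipid made by VPS34. Atg2a had 12.9 and 8.55 RPKM in WT1 and WT2 and 8.17 and 6.28 in KO1 and KO2, and Wipi1 had 13.9 and 12.0 against 8.50 and 10.7. These are the 2 genes of the step whose groups did not overlap. The paralogs Atg2b (158 reads) and Wipi2 (196 reads) overlapped, with WT means of 4.64 and 6.27 RPKM and means of 3.78 and 7.13 in the libraries labelled KO. Atg9a, at 42 reads, had 2.46 and 2.66 RPKM in the 2 group means.

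In the conjugation step, ATG7 is the activating enzyme, ATG3 and ATG10 are the conjugating enzymes for LC3 and for ATG12, ATG5, ATG12 and ATG16L1 form the complex that directs lipidation, and the ATG4 proteases trim LC3 family proteins and release them again. The coding sequence of Atg3 (chromosome 16, 45158785 to 45188538, plus strand, GRCm38) is shown because, like Uvrag among the 38 genes, it carries both kinds of stretch for which eIF5A is known: codons for aspartate, aspartate and glycine at residues 101 to 103 and codons for 4 prolines in a row at residues 254 to 257 of 314. The first stretch lies at chr16:45171687-45171743 on the plus strand. Capitals mark those codons in the reading frame of the longest GENCODE vM21 coding sequence, written 5′ to 3′.
Atg3 bases 277 to 333: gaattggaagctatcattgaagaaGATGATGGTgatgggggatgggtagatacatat
Atg3 bases 736 to 795: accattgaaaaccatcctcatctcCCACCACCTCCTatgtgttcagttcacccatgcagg

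Atg3 had 23 and 4 reads in WT1 and WT2 and 35 and 16 in KO1 and KO2, equal to 12.1, 2.69, 12.2 and 6.28 RPKM. The highest library labelled KO was level with the higher WT library, and the 2 WT libraries were farther apart than the group means. The log2 difference was 0.50 (SE 0.69, 95% interval -1.19 to 2.19, limma adjusted p-value of 0.82), and without WT1, WT2, KO1 and KO2 in turn it was 1.41, -0.42, 0.066 and 0.93. The interval spans a 2-fold change in either direction, and changes of that size were not detectable at this depth and spread between replicates. Atg7, Atg5, Atg12, Atg16l1, Atg10 and Atg4b also overlapped between groups, with 68, 71, 63, 75, 15 and 100 reads and WT means of 3.57, 11.5, 3.11, 2.67, 2.82 and 5.61 RPKM against 3.42, 10.7, 2.75, 2.77, 3.37 and 3.74. Atg4c had 0, 1, 5 and 9 reads in WT1, WT2, KO1 and KO2, and its groups did not overlap. At 0.63 RPKM and below in WT, against 1.65 and 3.33 in KO1 and KO2, its log2 difference was 1.40 (SE 0.69, limma adjusted p-value of 0.68), on 15 reads in all. It passed the filter through the libraries labelled KO alone, and this value is given as a description. Atg4a and Atg4d, which were not tested, had 0, 0, 0 and 5 reads and 4, 2, 4 and 10 reads.

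The 3 tripeptides Pro-Pro-Pro, Pro-Pro-Gly and Asp-Asp-Gly were counted in the proteins encoded by all 38 longest coding sequences. Pro-Pro-Pro was present in 10 of the 38 and in 20.01% of 21794 protein-coding genes, Pro-Pro-Gly in 9 and in 16.9%, and Asp-Asp-Gly in 3 and in 7.56%. Ambra1 held 5 overlapping Pro-Pro-Pro matches and Pik3r4 and Bnip3l 3 each, and their log2 differences were -0.40, 0.27 and 0.03. Atg3, Uvrag and Tax1bp1 held Asp-Asp-Gly, and their log2 differences were 0.50, -0.48 and 0.65. Atg3 and Uvrag, with 2 Pro-Pro-Pro matches each, were the 2 genes that held Asp-Asp-Gly and Pro-Pro-Pro together, and they lay on opposite sides of 0. The genes with these stretches were thus found on both sides of 0, and no test was made of them as a group.

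**Figure D3:**
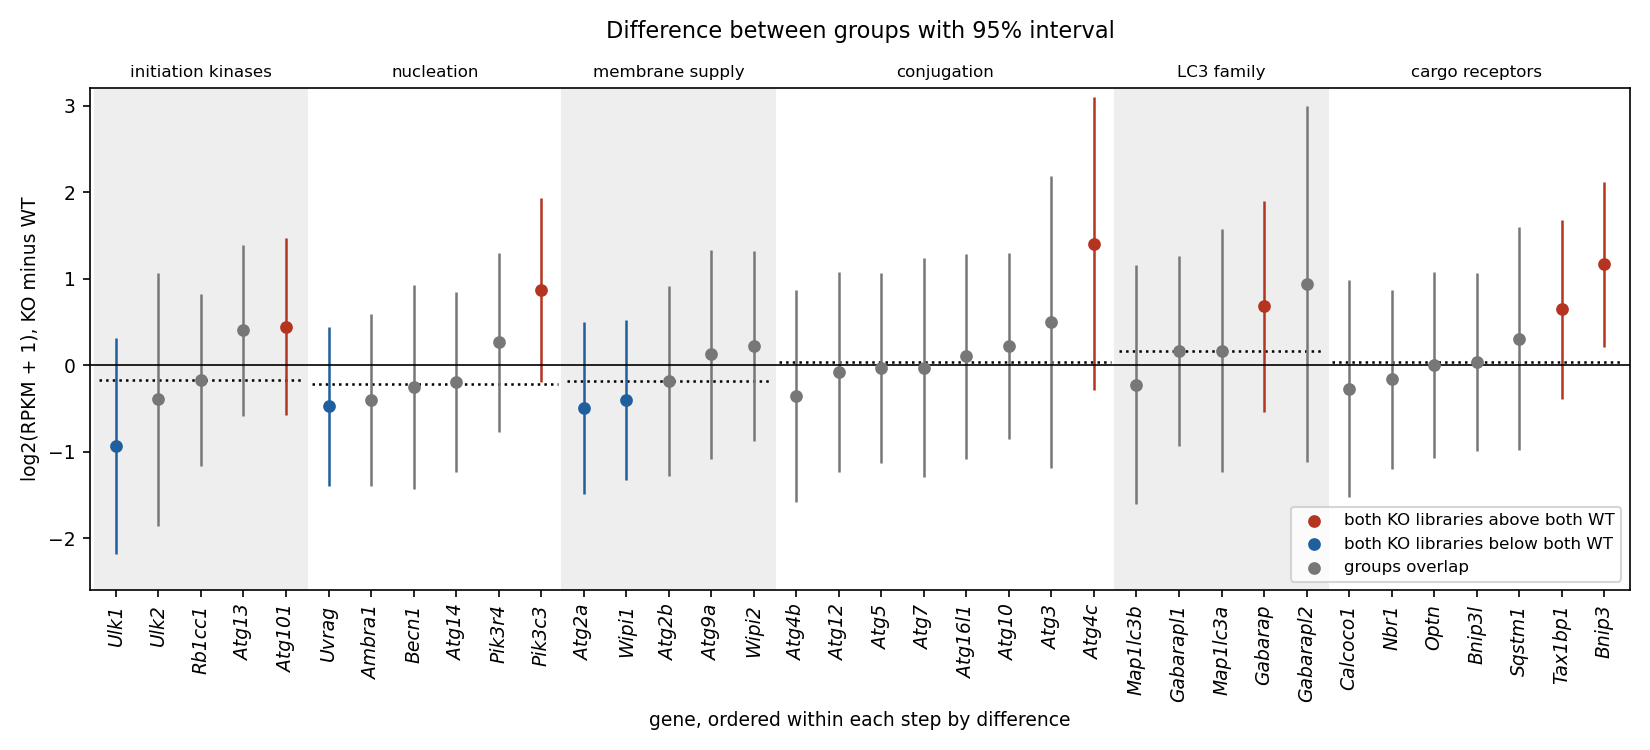
Difference between groups for the 36 tested genes (y axis, log2(RPKM + 1), KO minus WT) with limma 95% intervals, grouped by step on the x axis and coloured by whether the 2 groups overlap; dotted lines give step medians. All intervals but that of Bnip3 (0.21 to 2.12) include 0.

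The LC3 family comprises the ubiquitin-like proteins that are attached to lipid, with the LC3 branch (Map1lc3a, Map1lc3b) and the GABARAP branch (Gabarap, Gabarapl1, Gabarapl2). Gabarap (chromosome 11, 69991143 to 69994951, plus strand, GRCm38) had 55, 67, 135 and 183 reads in WT1, WT2, KO1 and KO2, equal to 49.5, 77.1, 80.7 and 123 RPKM. Its groups did not overlap, but WT2 and KO1 were closer to each other than either was to its own replicate. The log2 difference was 0.68 (SE 0.49, 95% interval -0.54 to 1.90, limma adjusted p-value of 0.71), and it was 0.36 without WT1 and 0.38 without KO2. Gabarapl1 had 21.4, 14.8, 15.9 and 25.2 RPKM in the same order, with the groups overlapping and a log2 difference of 0.16 (SE 0.44, limma adjusted p-value of 0.92) that became -0.16 without KO2. Map1lc3a had 9.83, 28.8, 20.5 and 17.8 RPKM, so both libraries labelled KO fell between the 2 WT libraries, and its log2 difference was 0.17 (SE 0.57, limma adjusted p-value of 0.94), or -0.56 without WT1. Map1lc3b, at 147 reads, was split in the opposite manner, with 12.4 RPKM in WT1, 3.95 in WT2 and 4.99 and 7.08 in KO1 and KO2.

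On coding length Gabarap made up 43.8%, 60.4%, 62.7% and 66.2% of the family's summed level in WT1, WT2, KO1 and KO2. The GABARAP branch thus held the greater part of the family's footprints in every library, although Map1lc3b, the member most used as a marker of autophagy, took 30.1% in WT1 and 8.53%, 10.7% and 10.5% in the others. For Map1lc3b the longest annotated coding sequence, of 519 bases, is longer than those of its relatives (351 or 363), which lowers its level on this scale.

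**Figure D4:**
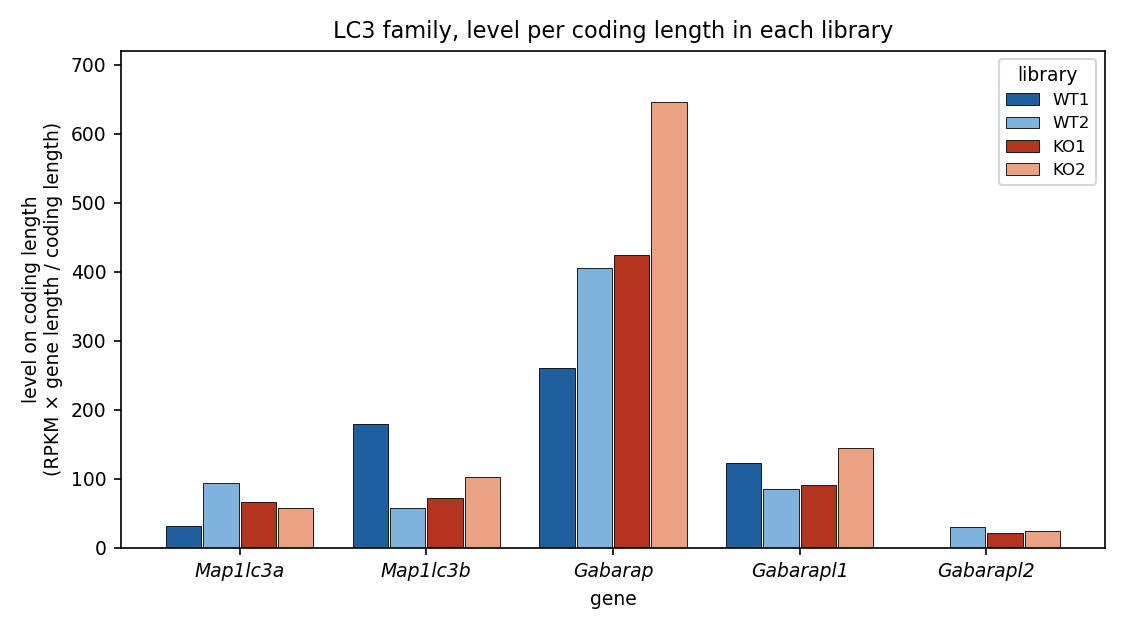
Level of the 5 LC3 family genes on coding length (y axis, RPKM × gene length / coding length) in each library (bars). Gabarap runs from 260 in WT1 to 645 in KO2 and is the highest of the family in all 4 libraries, while Gabarapl2 has no bar in WT1 because it had 0 reads there.

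Gabarapl2 had only 0, 5, 7 and 7 reads in WT1, WT2, KO1 and KO2. Of the 30-base windows of its coding sequence, 98.4% also occur in other transcripts of the annotation, those of processed pseudogenes. Bases 181 to 240 of its coding sequence (chr8:111942592-111942651, plus strand, GRCm38) are printed with the same stretch of the pseudogene Gm3724 (chromosome 5) and of Gabarap, in which capitals mark the bases that differ from Gabarapl2, to show which genes a footprint of this length could tell apart.
Gabarapl2: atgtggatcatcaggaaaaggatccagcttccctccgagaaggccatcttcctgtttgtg
Gm3724: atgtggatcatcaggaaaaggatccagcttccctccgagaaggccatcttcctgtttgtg
Gabarap: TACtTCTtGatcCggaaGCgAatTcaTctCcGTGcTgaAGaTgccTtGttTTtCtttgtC

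The stretch is identical in the pseudogene and differs from Gabarap at 27 of 60 bases. Of the 38 genes, 30 shared no 30-base window with another gene, while Gabarapl2, Bnip3, Bnip3l and Atg4a shared 98.4%, 86.3%, 83.8% and 82.4% of theirs. The 6 copies of Gabarapl2, the 4 of Bnip3 and the 1 each of Bnip3l and Atg4a held 0 reads in all 4 libraries. The counting of reads with several matches is not given in the sources used here, so the levels of these 4 genes are uncertain. Reads of genes that overlap another gene, such as Becn1 with Cntd1, Atg4d with Kri1 and Sqstm1 with Mrnip, could also be shared, since use of strand is not given either.

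Among the cargo receptors, SQSTM1 (p62), NBR1, OPTN and TAX1BP1 bind ubiquitinated cargo, CALCOCO1 acts in turnover of the endoplasmic reticulum, and BNIP3 and BNIP3L are receptors in the outer mitochondrial membrane. Sqstm1 (chromosome 11, 50199366 to 50210827, minus strand, GRCm38) had the highest level of the 38 genes, with 156, 231, 196 and 280 RPKM in WT1, WT2, KO1 and KO2 from 315, 365, 598 and 760 reads. Replicate differed from replicate by more than group from group, and the log2 difference was 0.31 (SE 0.52, 95% interval -0.98 to 1.59, limma adjusted p-value of 0.86). It was 0.024 without WT1, 0.59 without WT2, 0.56 without KO1 and 0.051 without KO2. Tax1bp1 had 9.30 and 8.29 RPKM in WT1 and WT2 and 18.6 and 10.9 in KO1 and KO2, from 352 reads in all, and did not overlap. Nbr1, Optn and Calcoco1 overlapped, with 284, 105 and 137 reads and WT means of 15.6, 10.1 and 10.0 RPKM against 14.0, 9.89 and 7.36.

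Bnip3 (chromosome 7, 138890836 to 138909519, minus strand, GRCm38) had 6, 3, 21 and 15 reads in WT1, WT2, KO1 and KO2, equal to 4.39, 2.81, 10.2 and 8.20 RPKM. Both libraries labelled KO were above both WT libraries, and this gap was wider than that between replicates of either group. The group means were 3.60 ± 1.12 and 9.21 ± 1.43 RPKM (SD, n = 2). The log2 difference was 1.16 (SE 0.39, 95% interval 0.21 to 2.12), with p-values in limma of 0.025 before adjustment and 0.66 after it. It kept its sign without each library in turn, with a difference of 0.91 to 1.41, but the unadjusted p-value (limma) was 0.093 without WT2, 0.19 without KO1 and 0.12 without KO2. Once each library was corrected for GC content and coding length it was 0.84 with an unadjusted p-value of 0.088 in limma, and with limma-voom on recovered reads it was 1.23 with an unadjusted p-value of 0.12. An exact permutation test over the 4 libraries gave the smallest p-value possible in this design, 0.333. Most of its coding sequence is shared with its pseudogenes, and bases 100 to 159 (chr7:138898701-138898760, minus strand) are printed as a stretch that occurs letter for letter in the pseudogene Gm16439.
Bnip3: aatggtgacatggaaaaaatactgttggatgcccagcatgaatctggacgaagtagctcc

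Bnip3l, the other mitochondrial receptor of the list, had 3.01 and 2.20 RPKM in WT1 and WT2 and 3.14 and 2.25 in KO1 and KO2, from 29 reads. Bnip3 is known as a target of the hypoxia response, so 12 hypoxia target genes were read beside it, of which 11 were in the table and 10 were tested. Ldha and P4ha1 were higher in both libraries labelled KO than in both WT libraries, Pdk1 and Egln1 were lower (Pdk1 with a mean under the 1 RPKM filter in the libraries labelled KO), and 6 overlapped. These are 20% of the 10 in each direction, beside 20.1% and 20.3% of all genes tested. Egln1 alone of the 10 had an unadjusted p-value under 0.05 (limma), as 7.32% of all genes tested had, with a log2 difference of -1.07 and an adjusted value of 0.67. The summed level of the list was 289 and 401 RPKM in WT1 and WT2 and 545 and 400 in KO1 and KO2.

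Of the 36 tested genes, 6 had both libraries labelled KO above both WT libraries (16.7%, where 20.1% of all genes tested had) and 4 had both below (11.1%, where 20.3% had). The higher genes were Atg101, Pik3c3, Atg4c, Gabarap, Tax1bp1 and Bnip3, which belong to 5 of the 6 steps. Of these, Atg4c was tested only through its higher group. The lower ones were Ulk1, Uvrag, Atg2a and Wipi1, from the initiation, nucleation and membrane supply steps. A share near or under that of all genes is no result about the pathway. Replicates were in fact often farther apart than groups. In 30 of the 36 genes (83.3%) the wider gap between replicates, on the log2 scale, exceeded the difference between group means, as it did in 73.1% of all genes tested. WT1 and WT2 differed by at least 1 on that scale in 9 of the 36 genes and KO1 and KO2 in none, where the shares over all genes tested were 29.3% and 17.1%. WT1 was above WT2 in 24 of the 36 genes, where 48.8% of all genes tested showed this direction.

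The difference between groups also moved with base composition. Across the 36 genes the log2 difference and the GC content of the coding sequence had a Spearman correlation of -0.51, and across the 9869 protein-coding genes tested it was -0.36. These are descriptions over genes that share the 4 libraries and are not independent. Tax1bp1, Atg3, Bnip3, Pik3c3 and Gabarap, all above 0, have coding sequences of 42.8% to 47.9% GC, and Ulk1 and Atg2a, both below 0, of 59.3% and 59.7%. Atg101 and Sqstm1, with 57.8% and 58.1% GC, were above 0, and Rb1cc1, at 39.6% the lowest in GC, and Atg5, at 44.6%, were below. With each library's trend on GC content and coding length removed, the difference was -0.55 for Ulk1, 0.32 for Gabarap, 0.15 for Atg3 and 0.69 for Pik3c3, each nearer 0 than before, while Atg101 and Sqstm1 moved away from 0 to 0.60 and 0.53.

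**Figure D5:**
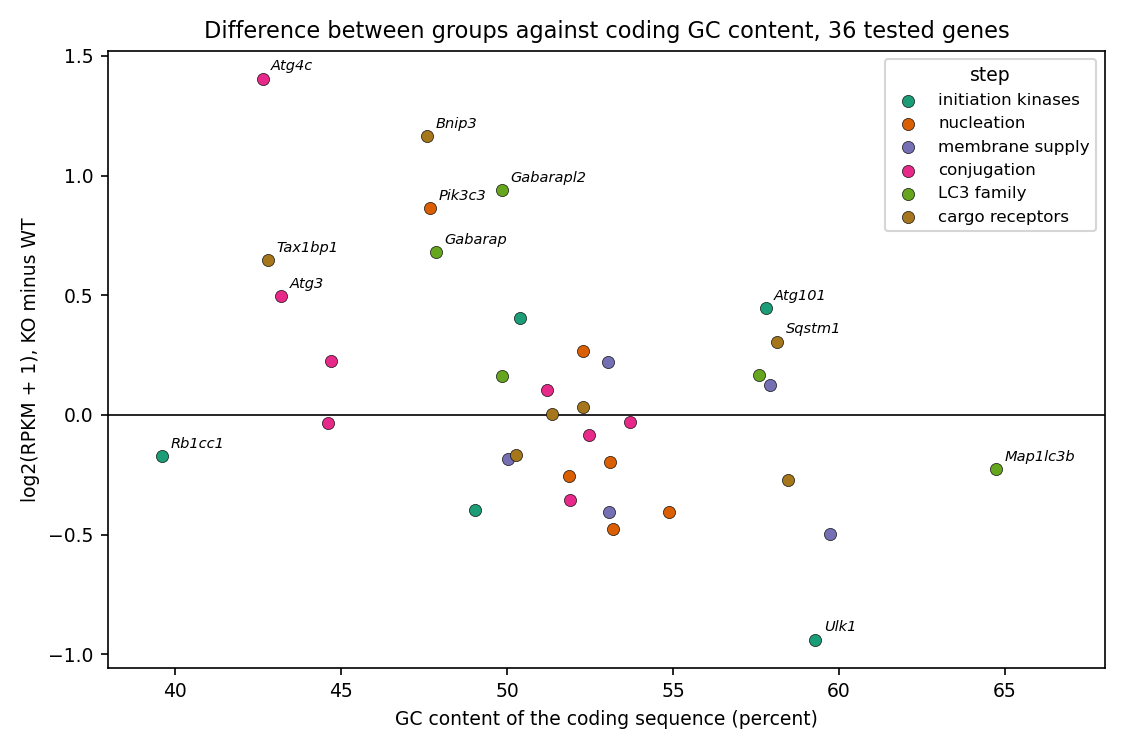
Difference between groups (y axis, log2(RPKM + 1), KO minus WT) against the GC content of the coding sequence (x axis, percent) for the 36 tested genes, coloured by step. Genes low in GC such as Bnip3 and Tax1bp1 lie mostly above 0 and Ulk1, at 59.3% GC, is the lowest point, while Rb1cc1 at 39.6% and Atg5 at 44.6% GC lie below 0.

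A wider set of 57 genes that regulate or complete autophagy was taken from the same fit. None of the 50 that were tested passed the adjusted threshold in limma, as 0.106% of all genes tested did, 2 had an unadjusted p-value under 0.05 in limma, as 7.32% of all genes tested had, and none passed the adjusted threshold with limma-voom. Both libraries labelled KO were above both WT libraries in 10 of the 50 and below both in 11, against 20.1% and 20.3% of all genes tested. Of these, 1 higher gene and 3 lower genes had a mean below 1 RPKM in 1 group and passed the filter through the other alone. By group, this was 2 higher and 4 lower of 11 for mTORC1 and AMPK, 1 and 2 of 11 for core paralogs and membrane regulators, 4 and 0 of 14 for autophagosome fusion, and 3 and 5 of 14 for other receptors and mitophagy. Calcoco2 and Ccpg1 held 0 reads in all 4 libraries.

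Vamp8, a SNARE protein of autophagosome fusion, had 6, 3, 34 and 21 reads in WT1, WT2, KO1 and KO2, or 4.31, 2.76, 16.2 and 11.3 RPKM. It was the wider gene with the largest difference, 1.70 on the log2 scale (SE 0.41, limma p-values of 0.0062 before and 0.58 after adjustment), and the difference stayed between 1.45 and 1.95 without each library in turn. The unadjusted p-value (limma) was then 0.032 without WT1, 0.055 without WT2, 0.099 without KO1 and 0.0501 without KO2. Snap29, which pairs with it in the fusion complex, had 6.74, 3.08, 8.96 and 9.34 RPKM and a log2 difference of 0.85 (SE 0.44, limma adjusted p-value of 0.68), which was 1.31 without WT1 and 0.39 without WT2. Akt1s1, which encodes the mTORC1 inhibitor PRAS40, had 14.0, 14.5, 5.38 and 7.25 RPKM, with the replicates of each group close together. Its log2 difference was -1.07 (SE 0.38, limma p-values of 0.029 before and 0.67 after adjustment), and the unadjusted p-value (limma) was 0.065 to 0.13 without each library in turn. Fkbp8, a mitophagy receptor, and Pink1, the kinase that marks damaged mitochondria, had log2 differences of -1.08 and -0.82 (limma adjusted p-values of 0.68 and 0.70), of which -0.60 and -0.29 were left without WT1. Without WT2 the unadjusted p-values (limma) of Snap29, Fkbp8 and Pink1 were 0.26, 0.047 and 0.045, and that of Snap29 without WT1 was 0.034. After each library's trend on GC content and coding length had been taken out, the difference was 1.43 for Vamp8 and -0.62 for Akt1s1, with unadjusted p-values of 0.011 and 0.11 in limma.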

How the data were processed

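Ribo-seq libraries were prepared by the authors from RNase I digests of myoblast lysates, aligned to mm10 (GRCm38) with TopHat2, and HTSeq gave counts per gene. The authors deposited RPKM in a single table. Multiplying each RPKM by gene length and by a factor found for each library gave whole reads for 100.0% of values (tolerance 0.01). The implied scaling used median-of-ratios size factors (0.912, 0.713, 1.37 and 1.22 in WT1, WT2, KO1 and KO2), so that a shift common to most genes is removed from these values. Differences were tested with limma 3.58.1 (R 4.3.3, variance trend, two-sided, Benjamini-Hochberg) on log2(RPKM + 1) over the 11363 genes whose mean RPKM was 1 or more. This scale understates the change of low genes. A floor of 3 reads served only to describe the depth and was applied to no value or test. The Wilson intervals of read shares cover counting error only, while the limma intervals rest on the spread between libraries. Coding sequences, GC content and shared 30-base windows came from GENCODE vM21, whose build is that of the table, and the script was tested on simulated data.

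Full values are given for genes with an unadjusted p-value under 0.05, for those with groups apart, at least 2-fold between means and 20 reads, for the 5 with the highest mean RPKM, and for Atg3 and Eif5a. Of the wider genes, those past the adjusted threshold and the 5 with the largest difference among those with groups apart and 20 reads were taken. Values outside this rule were chosen after they were seen. The members, lists and tests were chosen with earlier results of these data known. Alternatives were a pseudocount of 0.1, no filter, a mean RPKM of at least 5, no variance trend, limma-voom on recovered reads, total reads, median centring, protein-coding genes alone, removal of each library's trend on GC content and coding length, a replicate block, and leaving out each library. In a fit without a library the lone library of its group was assumed to vary like the other group.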

Additional observations from a re-analysis of the deposited data

How the results depend on the processing

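No member and no wider gene passed the adjusted threshold in limma in any alternative that kept all 4 libraries. In most of these no gene at all passed, so the lack of members is no result about the pathway. This held for a pseudocount of 0.1, no filter, a mean RPKM of at least 5, no variance trend and total reads. It also held for protein-coding genes alone, the correction for GC content and length, and the replicate block. Of all genes, 0.07% passed after median centring, 0.695% with limma-voom, and 0.18% with both that correction and the block. The lowest adjusted p-value (limma) of a member was 0.29, on total reads. The criterion of at least 2-fold and an unadjusted p-value under 0.05 was met in the higher direction by 2 members without a variance trend and 2 with protein-coding genes alone (Bnip3 and Atg4c in both, Atg4c having passed the filter through KO1 and KO2 alone), by 6 with Atg4c among them on total reads, and by 0 with the GC and length trend removed. Without a variance trend 2.51% of all genes met it, and the other shares follow. In the lower direction 1 member, Ulk1, met it with limma-voom. Of the wider genes 2 met it as reported, 1 after the same correction for GC and length, and 3 each with limma-voom, on total reads and with protein-coding genes alone. Over all genes tested 2.67% met it higher and 4.29% lower as reported, 3.07% and 2.91% after that correction, 3.63% and 7.15% with limma-voom, 13.9% and 1.48% on total reads, and 3.93% and 4.00% with protein-coding genes alone. Total reads in place of the deposited scaling moved the median of all genes to 0.47, and then 15 members were higher with groups apart and 0 lower, where 41.4% and 7.87% of all genes were. The median over the members was then 0.53, and the step medians were 0.28 for initiation, 0.27 for nucleation, 0.30 for membrane supply, 0.53 for conjugation, 0.75 for the LC3 family and 0.55 for receptors; 20 of 36 members kept their sign. A mean RPKM of at least 5 left 21 members and moved the medians to 0.40 for initiation, -0.41 for membrane supply and 0.23 for conjugation, where fewer genes were tested. Gabarapl1 turned to -0.13 under the correction for GC content and length, where 30 of 36 members kept their sign. The median over the members was then -0.02. Step medians were -0.34 for initiation, -0.25 for nucleation, -0.03 for membrane supply, -0.07 for conjugation, 0.25 for the LC3 family and 0.02 for receptors.

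Leaving out each library gave 0 to 1 members past the 2-fold criterion in each direction, 8 to 21 members higher with groups apart and 5 to 18 lower (31.7% to 35.9% and 30.4% to 39.4% of all genes, since a lone library overlaps less often by construction), and 0 to 7 wider genes past the 2-fold criterion (1.75% to 6.42% of all genes higher and 1.96% to 6.42% lower). The median over the members ran from -0.32 without WT2 to 0.26 without WT1. Step medians ran from -0.39 to 0.20 for initiation, -0.49 to 0.21 for nucleation, -0.50 to -0.10 for membrane supply, -0.054 to 0.39 for conjugation, 0.26 to 0.89 for the LC3 family and -0.13 to 0.35 for receptors. The ranges were -0.56 to 0.89 for Map1lc3a, -0.16 to 0.48 for Gabarapl1, -0.42 to 1.41 for Atg3 and -0.12 to 0.76 for Eif5a.

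The libraries share only a replicate number, and deviations of same-numbered libraries had a correlation of 0.057 over genes. With a replicate block the median over the members was 0.02, 1 member met the 2-fold criterion and 0 passed the adjusted threshold, as without it. Over all genes tested 2.78% met the 2-fold criterion higher and 4.46% lower with that block, and 0% passed the adjusted threshold. The GC and length correction with the replicate block gave 0 members and 1 wider gene past the 2-fold criterion, and -0.13 for Gabarapl1. Over all genes tested 4.16% then met that criterion higher and 3.42% lower. The median member held 100 reads over 4 libraries, but Sqstm1 with 2038 reads had a standard error of 0.52, above the members' median of 0.45, so the spread between replicates also limits these values.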

Other observations

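Apart from Akt1s1, the regulators upstream of the initiation step were described by group only, and the values here were chosen after they were seen. Rptor, which encodes the mTORC1 scaffold Raptor, had 7.14 and 5.04 RPKM in WT1 and WT2 and 4.42 and 4.04 in KO1 and KO2. Tsc2, an mTORC1 suppressor, had 7.24 and 4.85 against 4.24 and 3.09, and Deptor, an mTOR inhibitor, 4.30 and 2.87 against 1.74 and 1.54. In these 3 genes, as in Akt1s1, both libraries labelled KO were below both WT libraries, so that 4 of the 11 tested genes of the group were lower, beside 20.3% of all genes tested. Their log2 differences of -0.42, -0.59 and -0.78 had limma adjusted p-values of 0.73, 0.70 and 0.69. Mlst8, another subunit of the complex, lay on the other side, with 0.75 and 0.48 RPKM in WT1 and WT2 and 1.49 and 1.95 in KO1 and KO2, on 2, 1, 6 and 7 reads. With a WT mean below the filter of 1 RPKM it was tested only through its level in the libraries labelled KO, and these values are a description. Prkaa1, a catalytic subunit of AMPK, was the other of the 2 genes with both libraries labelled KO above, with 16.7 and 12.8 RPKM against 17.5 and 18.6, beside 20.1% of all genes tested. Mtor itself and Rheb, its activator, overlapped between groups, with log2 differences of -0.28 and 0.067.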
